A study of Mus musculus with 6 samples.

Results

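The 9 genes described here mark Kupffer cells, the resident macrophages of the liver: Clec4f, Vsig4, Marco, Cd5l, C1qa, C1qb, C1qc, Csf1r and Cd68. They were chosen by name, and all 9 were found among the 8390 genes of the table that holds the study's measurements. The study measured liver mRNA by RNA sequencing in mice of the inbred strain C57BL/6. For the LV group, mice had been injected intravenously with 3e8 transducing units of a lentiviral vector (LV). This is a particle derived from a retrovirus that carries a transgene but does not replicate. Livers were taken 4 h after the injection and gave 3 libraries. The other 3 libraries came from mice that received no treatment. The sample titles number the replicates and do not say whether each is a separate mouse. Each library is called a liver here. The 6 samples include no mock-injected mouse, so the vector and the injection cannot be told apart. The sources used here do not give the sex or age of the mice or the makeup of the vector.

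Kupffer cells line the sinusoids of the liver and take up particles, bacteria and ageing blood cells from the passing blood. They depend on signals through the receptor Csf1r, whose ligands are Csf1 and Il34. Their surface carries receptors for sugars, complement fragments and polyanions, and they are a main source of C1q, the recognition part of the first complement component, most other parts of which are made by hepatocytes.

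Each gene has a whole-number value per liver in a unit that the table does not name. It appears to be scaled for library size, and scaling for transcript length was not examined. Library sums were close to each other (497295 to 526009) and do not count reads. Read depth and counting error are therefore unknown. Averages carry their SD over the 3 livers of a group (n = 3). A fold change is the mean log2(value + 1) of LV livers minus that of untreated livers, with its SE, and understates the change of low genes. Tests are from limma over 8386 genes with Benjamini-Hochberg adjustment, and a gene is called at an adjusted p under 0.05. The source of the replicates is given by the sample titles alone, and p-values cover just the spread between these livers, which may be technical. LV replicate 3 and untreated replicate 2 stood apart from the other libraries: Elovl3, a fatty acid elongase that is male-biased in mouse liver, had 169 and 159 there and at most 4 in the others. In whole liver, fewer Kupffer cells and less of a transcript per cell cannot be told apart.

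Promoter sequences were looked up for the marker genes because several moved together from liver to liver. RefSeq sequence of build GRCm38.p6 was found for 7 of the 9. The letters shown are the 250 bases before the start of the gene, 5′ to 3′ on the strand of the gene, for 4 genes: C1qb (chr4:136886201-136886450, minus strand) and C1qc (chr4:136892915-136893164, minus strand), the pair with the steadiest ratio, and Vsig4 (chrX:96293439-96293688, minus strand) and Cd68 (chr11:69666171-69666420, minus strand), the markers that moved furthest apart relative to the rest. Capitals mark GAGGAA or its reverse complement TTCCTC, the core bound by PU.1 (listed as Sfpi1), the ETS factor that specifies macrophages.
C1qb: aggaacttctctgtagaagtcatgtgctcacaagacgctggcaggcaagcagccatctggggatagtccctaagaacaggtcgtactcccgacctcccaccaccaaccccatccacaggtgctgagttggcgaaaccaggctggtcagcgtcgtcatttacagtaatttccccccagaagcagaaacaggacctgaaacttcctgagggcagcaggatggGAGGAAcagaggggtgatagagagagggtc
C1qc: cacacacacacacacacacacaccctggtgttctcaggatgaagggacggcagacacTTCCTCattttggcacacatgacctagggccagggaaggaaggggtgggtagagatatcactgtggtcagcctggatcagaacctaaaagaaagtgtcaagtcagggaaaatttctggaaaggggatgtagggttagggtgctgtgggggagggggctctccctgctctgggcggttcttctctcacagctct
Vsig4: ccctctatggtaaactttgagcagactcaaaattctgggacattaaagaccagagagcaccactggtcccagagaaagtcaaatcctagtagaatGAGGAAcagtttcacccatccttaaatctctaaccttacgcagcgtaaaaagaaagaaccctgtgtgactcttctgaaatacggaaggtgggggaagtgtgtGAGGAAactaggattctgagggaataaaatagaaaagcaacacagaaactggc
Cd68: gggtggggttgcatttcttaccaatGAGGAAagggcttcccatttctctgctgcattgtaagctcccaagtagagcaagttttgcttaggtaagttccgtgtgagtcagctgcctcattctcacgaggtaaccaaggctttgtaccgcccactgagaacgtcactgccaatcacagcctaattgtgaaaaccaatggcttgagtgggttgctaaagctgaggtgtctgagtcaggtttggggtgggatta
The core was present in 6 of the 7 promoters and in 23.3% of 32851 RefSeq promoter windows of that length. It began 30 bases before the start in C1qb, 193 in C1qc, 225 in Cd68, and 155 and 53 in Vsig4. Clec4f was the promoter without these letters. The interferon-stimulated response element (GAAA, any 2 bases, GAAA, on both strands), present in 2.98% of all windows, matched 0 of the 7. So did the NF-kB site (GGGA, any 1 base, TTTCC, in 0.356% of windows) and the TFE/MITF box TCACGTG (3.13%). The AP-1 letters TGANTCA (6.75% of windows) matched 1, Cd68. A match is a description of these letters and not evidence of binding.

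Most marker genes had lower values after the vector, but no fold change passed the test over all genes. Of the 9, 7 had a negative fold change, with a median over the 9 of -0.62, against -0.07 over all genes tested, of which 58.1% were negative. In limma 0 of the 9 were called lower and 0 higher, where 0.87% of all tested genes were called lower and 3.76% higher. At an unadjusted p under 0.05, 1 of the 9 was lower, Vsig4, and 0 were higher; the shares among all genes were 10.3% and 9.21%. The LV values of 2 genes, Vsig4 and Clec4f, all lay below the untreated ones, as did those of 11% of all genes tested. The spread between the LV livers was wide. A 95% interval of most of the fold changes therefore takes in both no change and a log2 fold change of -1.

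**Figure D1:**
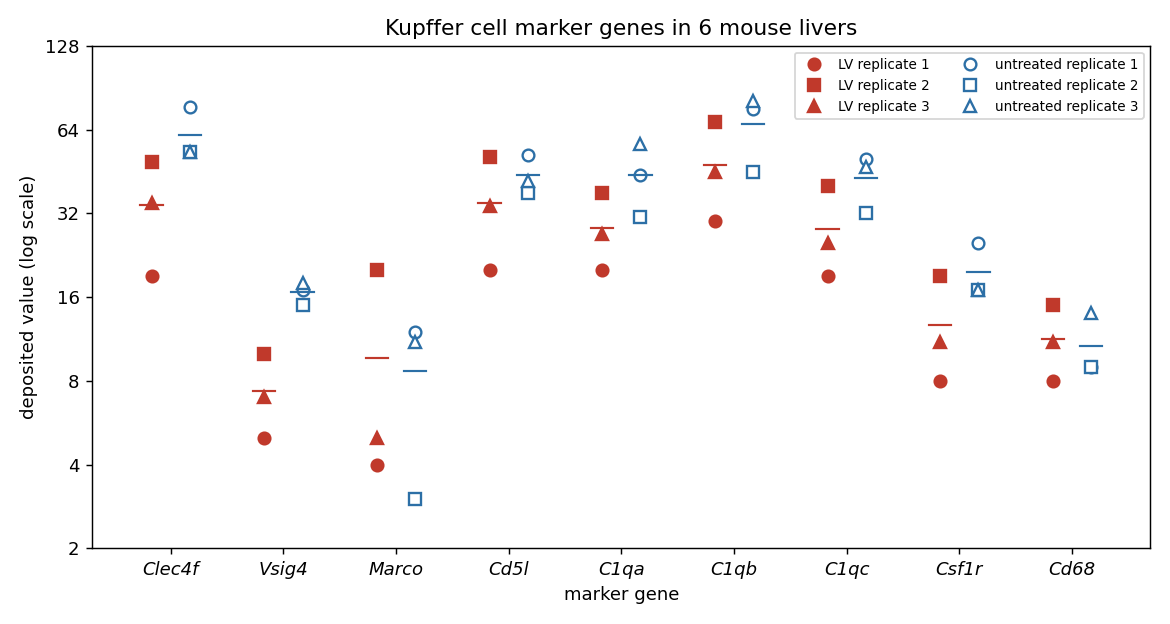
Deposited value (log axis) of each Kupffer cell marker gene in each of 6 livers, LV in filled red and untreated in open blue symbols, with the mean of each group as a line. LV replicate 1 is the lowest LV liver and LV replicate 2 the highest for all 9 genes.

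Vsig4, a receptor for fragments of complement C3 that lets Kupffer cells clear opsonised bacteria from blood, had the lowest fold change of the markers. Its values were 5, 10 and 7 in LV replicates 1, 2 and 3 and 17, 15 and 18 in untreated replicates 1, 2 and 3. The highest LV liver therefore lay below the lowest untreated one. The means were 7.33 ± 2.52 and 16.7 ± 1.53, a log2 fold change of -1.12 ± 0.23 (95% interval -1.71 to -0.54, limma adjusted p = 0.0693). This result sat close to the threshold: it passed when genes with a mean under 5 were left out (adjusted p = 0.0384), when libraries were scaled to the same total (0.0378) and under median-of-ratios scaling (0.0412). Over all alternatives the adjusted p ranged from 0.0378 to 0.24.

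Clec4f, a galactose-binding lectin restricted to Kupffer cells in mice, was at 19, 49 and 35 in the LV livers and at 77, 53 and 53 in the untreated ones. The groups did not overlap, but LV replicate 2 came within 4 of the lowest untreated livers. The fold change was -0.89 ± 0.37 (95% interval -1.81 to 0.04, limma adjusted p = 0.267). Leaving out LV replicate 1 brought it to -0.52.

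Marco, a scavenger receptor with a collagenous stalk that binds bacteria and particles, was the most variable marker. Its values were 4, 20 and 5 in the LV livers and 12, 3 and 11 in the untreated ones, so that the highest value of all was in an LV liver and the lowest in an untreated one. The log2 fold change was 0.00 ± 0.73 (limma adjusted p = 1), and its interval of -1.83 to 1.84 leaves a large change either way undecided. The sign turned negative in 4 of the fits, with values from -0.64 to 0.39.

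Cd5l, a secreted scavenger protein of macrophages that circulates with IgM, was at 20, 51 and 34 in LV livers against 52, 38 and 42 in untreated livers. LV replicate 2 lay among the untreated values and the other LV livers below them. The log2 fold change was -0.41 ± 0.35 (95% interval -1.28 to 0.47, limma adjusted p = 0.573), -0.07 without LV replicate 1 and -0.72 without LV replicate 2.

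The C1q chains kept close to fixed proportions from liver to liver while their level varied. C1qa, C1qb and C1qc encode the A, B and C chains of C1q, which binds immune complexes and dying cells, and they follow each other on chromosome 4. C1qa was at 20, 38 and 27 after the vector and at 44, 31 and 57 without it. C1qb had 30, 68 and 45 against 76, 45 and 81, and C1qc had 19, 40 and 25 against 50, 32 and 47. In each chain LV replicate 1 was the lowest of the 6 livers, and LV replicate 2 lay between the lowest and the highest untreated values.

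The fold changes of the 3 chains were alike. They were -0.62 ± 0.31 for C1qa, -0.52 ± 0.37 for C1qb and -0.64 ± 0.31 for C1qc (limma adjusted p = 0.332, 0.488 and 0.324). Without LV replicate 1 they were -0.40, -0.23 and -0.40. That of C1qb was -0.81 without LV replicate 2 and -0.78 without untreated replicate 2. Across the 6 livers the log2 level had an SD of 0.52 for C1qa, 0.55 for C1qb and 0.53 for C1qc, whereas the log2 ratio had an SD of 0.13 for C1qb to C1qc, 0.14 for C1qa to C1qb and 0.16 for C1qa to C1qc. These were the 3 smallest among all 36 pairs of markers. The ratio of C1qa to C1qb stayed between 0.559 and 0.704 in the 6 livers, and that of C1qb to C1qc between 1.41 and 1.80. The 3 genes share a cell source and a chromosomal cluster, so they are not separate measurements of one effect.

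Csf1r, the receptor tyrosine kinase on which Kupffer cells depend, had 8, 19 and 11 in LV livers and 25, 17 and 17 in untreated livers. LV replicate 2 exceeded the lowest untreated values, and the other LV livers lay below them. The log2 fold change was -0.65 ± 0.33 (95% interval -1.49 to 0.18, limma adjusted p = 0.337), and the fold change was -0.39 without LV replicate 1. Cd68, a lysosomal glycoprotein of macrophages in general, was at 8, 15 and 11 in LV and at 9, 9 and 14 in untreated livers. The groups overlapped fully, with a log2 fold change of 0.07 ± 0.27 (95% interval -0.62 to 0.75, limma adjusted p = 0.921) that ranged from -0.14 to 0.28 over the alternatives.

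**Figure D2:**
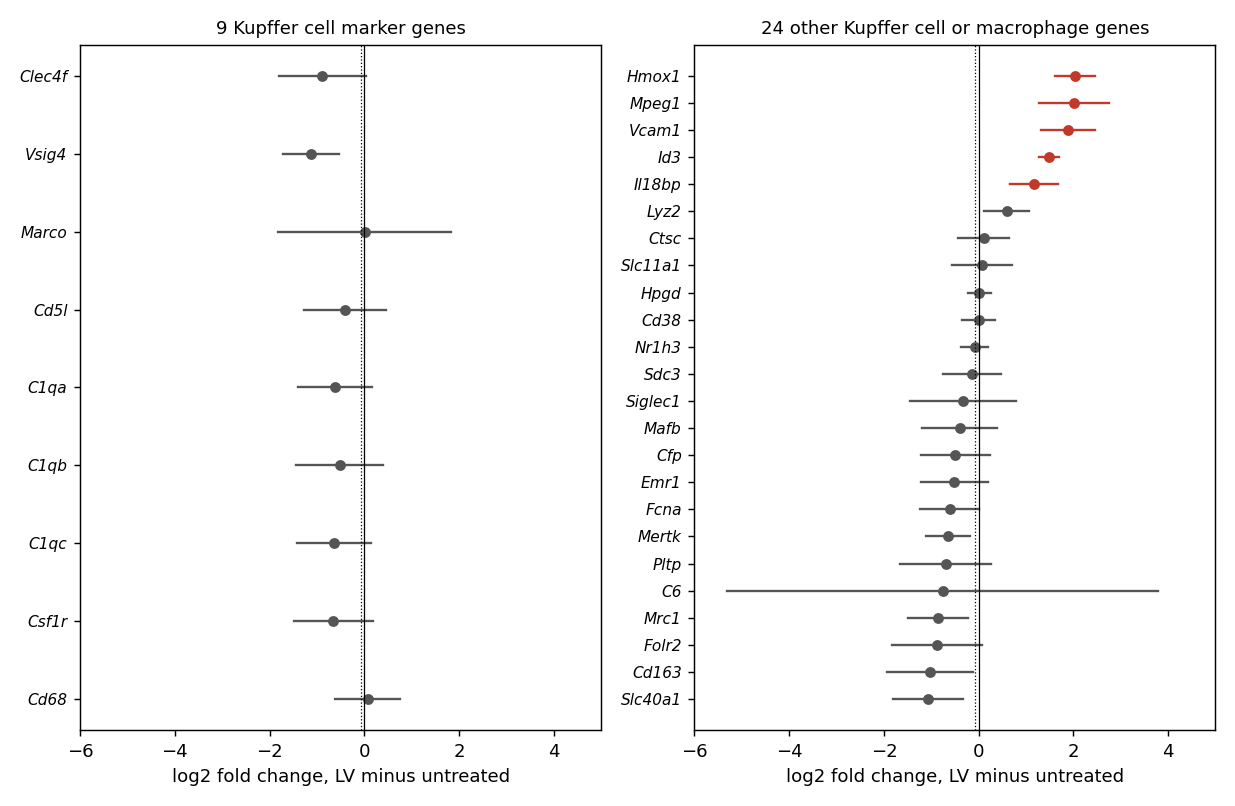
Log2 fold change of LV against untreated livers with its 95% interval from limma for the 9 marker genes (left) and 24 other genes of Kupffer cells or macrophages (right), red where the adjusted p is under 0.05; the dotted line is the median of all genes, -0.07. The fold changes of 7 markers lie below 0 and none is red, whereas 5 of the other genes are red and higher.

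The order of the LV livers was shared by every marker. LV replicate 2 was the highest, LV replicate 3 the middle and LV replicate 1 the lowest for all 9 genes, an order found in 6.15% of the genes tested. Of the 24 other Kupffer cell or macrophage genes described below, 11 had this order. LV replicate 1 had the lowest value of the 6 livers in 10 of these 24, and in 1689 of the 8386 genes tested. The median log2 level of the 24 relative to the untreated mean was -0.53, 0.05 and -0.17 in LV replicates 1, 2 and 3. The 9 values of a liver summed to 133, 310 and 200 in LV replicates 1, 2 and 3 and to 362, 243 and 340 in untreated replicates 1, 2 and 3. LV replicate 2 therefore exceeded untreated replicate 2. Relative to the untreated mean, the median log2 level of the 9 was -1.10 in LV replicate 1, -0.02 in LV replicate 2 and -0.64 in LV replicate 3. Untreated replicate 2 was the lowest untreated liver for all 9 genes, in ties included, at a median of -0.19.

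The markers were also compared with the livers that stand apart in male-biased genes taken separately. Between LV replicate 3 and untreated replicate 2, 6 of the 9 markers were lower in LV and C1qb was at 45 in both, with a median log2 difference of -0.19. This sets 1 liver against 1, and the markers moved together, so such counts of markers are not separate observations. The share among all genes is not given here. Between the other 2 LV and 2 untreated livers all 9 were lower in LV by mean log2(value + 1). The median difference was -0.78, against -0.01 over all genes tested. The share of all genes that were lower in this split is not given here either. For Cd68 the difference was -0.03. For Marco it was -0.29, with values of 4 and 20 in LV against 12 and 11. In these 2 genes the sign rests on the log scale. Fitted without LV replicate 3 and untreated replicate 2, Vsig4 had a limma adjusted p = 0.24. Without LV replicate 1 the median fold change of the 9 was -0.39, against -0.06 over all genes tested. In that fit 7 of the 9 were negative, Cd5l at just -0.07, and the share among all genes is not given.

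To see which markers departed from the others, each was set against the median of the other 8 in the same liver. A change in the share of cells that carry all 9 would largely cancel in this ratio, and a ratio shows unequal change, not which gene moved. Vsig4 was lower relative to the others in every LV liver, with log2 ratios of -1.74, -1.86 and -1.75 against -1.41, -1.02 and -1.26 in untreated livers, a difference of -0.55. Cd68 was higher relative to the others in every LV liver, at -1.15, -1.32 and -1.17 against -2.26, -1.70 and -1.60, a difference of 0.64. For both the two-sided exact permutation p was 0.1, the smallest that 3 livers against 3 can give, and 0.45 after adjustment over the 9 genes. The ratios of the other 7 overlapped between the groups. Their differences ranged from -0.29 for Clec4f to 0.58 for Marco, with C1qa at 0.00, C1qb at 0.08, C1qc at -0.06, Csf1r at -0.08 and Cd5l at 0.22.

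**Figure D3:**
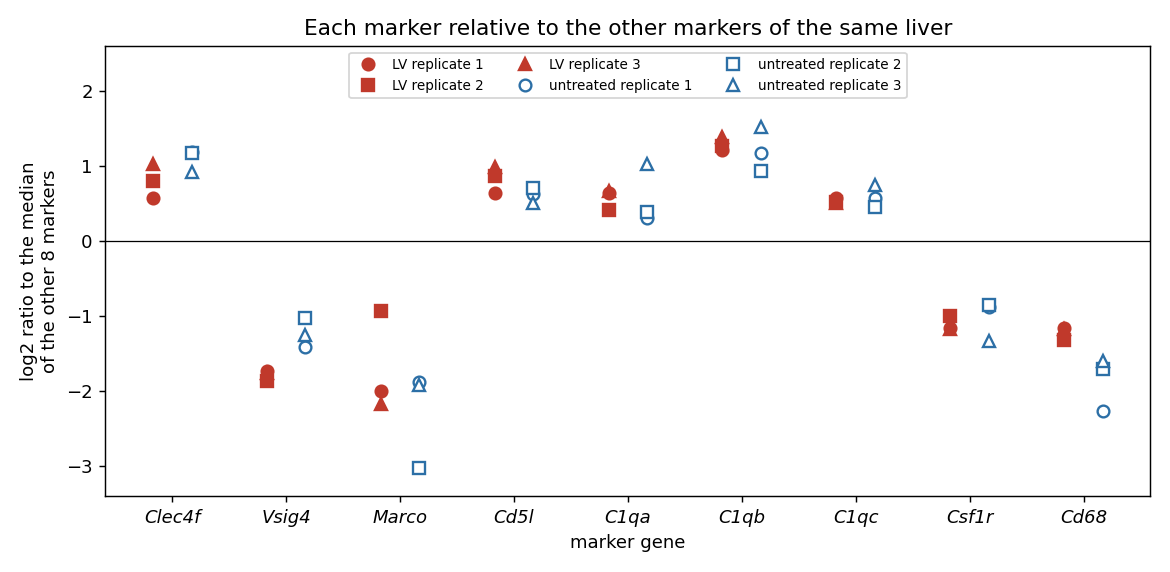
Log2 ratio of each marker to the median of the other 8 in the same liver, LV in filled red and untreated in open blue symbols. The LV livers lie below the untreated ones for Vsig4 and above them for Cd68, and the groups overlap for the other 7.

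Other genes known from Kupffer cells or resident macrophages went in both directions. Of 32 listed, 24 were in the table. In limma 5 were higher and 0 lower, where 3.76% of all tested genes were higher and 0.87% lower. Of the 24, 14 had a negative fold change (median -0.24), against 58.1% of all tested genes. The 5 higher genes were Id3, a helix-loop-helix inhibitor that Kupffer cells need to develop, Hmox1, the enzyme that degrades haem, the adhesion molecule Vcam1, the pore-forming protein Mpeg1, and Il18bp, a soluble inhibitor of interleukin-18. Il18bp falls outside the rule for named genes and was chosen after its values were seen. Other liver cells express these genes too, and the cells in which they rose were not identified.

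Id3 rose from 32 ± 1 to 92 ± 7.21 (log2 fold change 1.49 ± 0.08, limma adjusted p = 0.00144). Hmox1 had 44, 67 and 56 against 12, 12 and 14, with a fold change of 2.03 ± 0.17 (limma adjusted p = 0.00364). Its adjusted p was 0.0885 when LV replicate 3 and untreated replicate 2 were omitted. Mpeg1 went from 13 ± 5.57 to 52.7 ± 1.53, with an adjusted p = 0.0236, and 0.114, 0.119, 0.0697 and 0.111 without LV replicate 1, 2 or 3 or untreated replicate 1. Vcam1 went from 3 ± 1 to 13.7 ± 2.31 (adjusted p = 0.0118), and did not pass when LV replicate 1 or 2 or untreated replicate 3 was omitted (0.0715, 0.0765 and 0.0707). Il18bp had 23, 24 and 16 against 10, 9 and 7 (adjusted p = 0.039), and passed with single livers left out when LV replicate 3 was the one omitted (0.0295).

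The other 19 genes of this list did not pass the test and lay on either side of 0. Those named next were chosen after their values were seen. Sdc3, Slc11a1 and Cd38 lay near 0, with log2 fold changes of -0.14, 0.07 and 0.00. Cd163, the receptor for haemoglobin-haptoglobin complexes, had 1, 4 and 3 against 7, 6 and 5 (log2 fold change -1.02 ± 0.36, limma adjusted p = 0.207), and a fold change of -0.64 without LV replicate 1. Mertk, a receptor for the uptake of dying cells, had 5, 8 and 8 against 12, 11 and 11 (-0.65 ± 0.18, adjusted p = 0.137). Slc40a1, the iron exporter ferroportin, had 19, 16 and 28 against 35, 62 and 39 (-1.07 ± 0.29, adjusted p = 0.129). The LV livers all lay below the untreated ones in 5 of the 24 genes, among them Cd163, Mertk and Slc40a1, and all above them in 6. Over all genes tested these shares were 11% and 8.65%. Folr2, a folate receptor of resident macrophages, had 3, 9 and 6 against 15, 9 and 10, and Emr1, an adhesion receptor long used to identify mouse macrophages, had 2, 5 and 3 against 6, 5 and 4. For both genes the groups met or overlapped in LV replicate 2. Lyz2, a lysozyme of many myeloid cells, lay the other way, with 86, 101 and 66 against 64, 50 and 51 (0.60 ± 0.19, adjusted p = 0.174). Timd4 and Clec1b, further Kupffer cell markers, were not among the 8390 genes.

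Csf1, a ligand of Csf1r that drives macrophage survival, rose, while Csf1r itself did not pass the test. Csf1 was at 27, 26 and 25 after the vector and at 4, 4 and 3 without it. Its fold change was 2.54 ± 0.12 (limma adjusted p = 0.00137), and it was called under each alternative run. Il34, the other ligand, was not among the genes listed. Of the 10 other measured genes of the Csf1r axis, 1 was called, Csf1 itself. Among all tested genes 3.76% were called higher and 0.87% lower. Sfpi1, which encodes PU.1, an activator of Csf1r transcription, had 9, 14 and 8 against 6, 4 and 5, with every LV liver above the untreated ones (0.89 ± 0.24, adjusted p = 0.117). The signalling adaptors Tyrobp and Fcer1g, shared by myeloid cells, had fold changes of 0.07 ± 0.27 and 0.25 ± 0.23 (adjusted p = 0.912 and 0.589). Cebpa, a factor of both myeloid cells and hepatocytes, had -0.48 ± 0.11 (adjusted p = 0.0796, and 0.0329 without LV replicate 3).

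Among 13 measured transcription factors of macrophages, 2 were higher, Id3 and Irf8, and 0 were lower. Over all tested genes 3.76% were higher and 0.87% lower. Irf8, a regulator of myeloid identity that is also induced by interferon, had 16, 16 and 8 against 4, 3 and 4 (1.57 ± 0.29, limma adjusted p = 0.0461). Its call was lost when any 1 of the livers other than LV replicate 3 was left out, with adjusted p between 0.137 and 0.173. Nr1h3, the oxysterol receptor LXR alpha that maintains Kupffer cell identity and is also abundant in hepatocytes, had 54, 60 and 57 against 68, 53 and 61 (-0.08 ± 0.11, adjusted p = 0.718).

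The partners of C1q in the classical complement pathway, made largely by hepatocytes, had fold changes near or above 0. C1r and C1s, the proteases that C1q carries, had log2 fold changes of 0.02 ± 0.13 and -0.04 ± 0.18 (limma adjusted p = 0.986 and 0.94). C4b, cleaved by C1s, had 487, 547 and 621 against 374, 414 and 287 (0.63 ± 0.17, adjusted p = 0.129), and C2 had 86, 84 and 101 against 49, 77 and 53 (0.61 ± 0.19, adjusted p = 0.171, or 0.0443 when LV replicate 3 and untreated replicate 2 were omitted). C3, whose fragments Vsig4 binds, had 3846, 3309 and 2450 against 2610, 2228 and 2721 (0.33 ± 0.20, adjusted p = 0.431). Of 18 measured genes of this pathway and its receptors, 0 were called in limma, while 5 were higher and 1 lower at an unadjusted p under 0.05 (median fold change 0.18). At that unadjusted threshold 9.21% of all tested genes were higher and 10.3% lower. Whether the fold changes of the C1q chains differ from those of their partners was not tested.

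Scavenger receptors other than the markers gave 0 calls among 11 measured genes, with 1 higher and 2 lower at an unadjusted p under 0.05 (median -0.07). Msr1, a scavenger receptor of the same class as Marco, had 7, 10 and 9 against 9, 7 and 6 (0.22 ± 0.19, limma adjusted p = 0.573). Mrc1, the mannose receptor of Kupffer and endothelial cells, had 4, 7 and 8 against 12, 14 and 10 (-0.86 ± 0.26, adjusted p = 0.151). Lysosomal genes, the group to which Cd68 also belongs, gave 0 calls among 30 others and 7 lower at an unadjusted p under 0.05 (median -0.07). They included Mcoln1, a lysosomal calcium channel (-0.49 ± 0.11, limma adjusted p = 0.0816). At the unadjusted threshold used for both lists, 9.21% of all tested genes were higher and 10.3% lower.

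Endothelial cells share the sinusoid with Kupffer cells. LV replicate 1 had the lowest value of the 6 livers in 15 of 23 endothelial markers and the highest in 2. Among all 8386 genes tested, that liver was the lowest in 1689 and the highest in 1273. Of 23 measured endothelial genes 18 had a negative fold change and 0 were called, with 1 higher and 3 lower at an unadjusted p under 0.05 (median -0.39). Their median log2 level relative to the untreated mean was -0.83, -0.08 and -0.17 in LV replicates 1, 2 and 3 and between -0.20 and 0.10 in untreated livers. Their values summed to between 264 and 434 in LV and between 424 and 490 in untreated livers. Clec4g, a lectin of sinusoidal endothelium, had 11, 43 and 33 against 55, 54 and 58 (-1.11 ± 0.49, limma adjusted p = 0.29), and Stab2, their hyaluronan receptor, 9, 13 and 15 against 20, 17 and 14. Without LV replicate 1 their fold changes were -0.55 and -0.25. Lyve1, another hyaluronan receptor of these cells, lay the other way, with 10, 5 and 5 against 3, 3 and 2 (1.01 ± 0.28, adjusted p = 0.131). Lyve1 and Egfl7, an endothelial secreted protein at 39, 37 and 29 against 33, 26 and 31, were the 2 genes highest in LV replicate 1. The order of LV livers seen in the markers was found in 7 of the 23, and in 6.15% of all genes tested.

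Hepatocyte and stellate genes had other patterns over the livers. The medians of the pan-leukocyte genes had the markers' order of LV livers, at a higher level, and 2 of these 13 genes had that order singly. Among untreated livers their median was lowest in untreated replicate 2 (-0.25), as for the markers. For hepatocytes, all 16 listed markers were in the table and their median was 0.01, 0.10 and 0.11 in LV replicates 1, 2 and 3; 1 was higher, Hpx, the haem-binding acute-phase protein haemopexin (adjusted p = 0.0455). Its call was lost when any 1 liver other than LV replicate 3 was left out. For 19 stellate cell genes the medians were 0.28, 0.19 and -0.18, and 0 were called, with 4 higher and 3 lower at an unadjusted p under 0.05. For 13 genes shared by leukocytes, among them Ptprc at 1 to 3 in each liver, they were -0.11, 0.49 and 0.06, and 0 were called, with 2 higher and 1 lower at an unadjusted p under 0.05. In limma 3.76% of all tested genes were called higher and 0.87% lower. At the unadjusted threshold the shares were 9.21% and 10.3%.

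Few of the listed genes of incoming blood cells were measured, so these cells could not be followed by their defining markers. Of 20 monocyte genes 4 were measured and 1 was higher, Plac8, which is also induced by interferon (42, 44 and 22 against 10, 7 and 8, limma adjusted p = 0.0287); the call was lost when any 1 liver other than LV replicate 3 was left out, with adjusted p up to 0.125. Over all tested genes 3.76% were called higher. The 4 monocyte genes summed to between 576 and 715 in LV and between 483 and 518 in untreated livers, most of it from Fn1, which hepatocytes make. Of 21 neutrophil genes 1 was measured and of 25 lymphocyte genes 0, and the defining markers Ccr2, S100a8, S100a9 and Cd3e were not among the 8390 genes. The part of these cell types in the marker values was not tested.

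**Figure D4:**
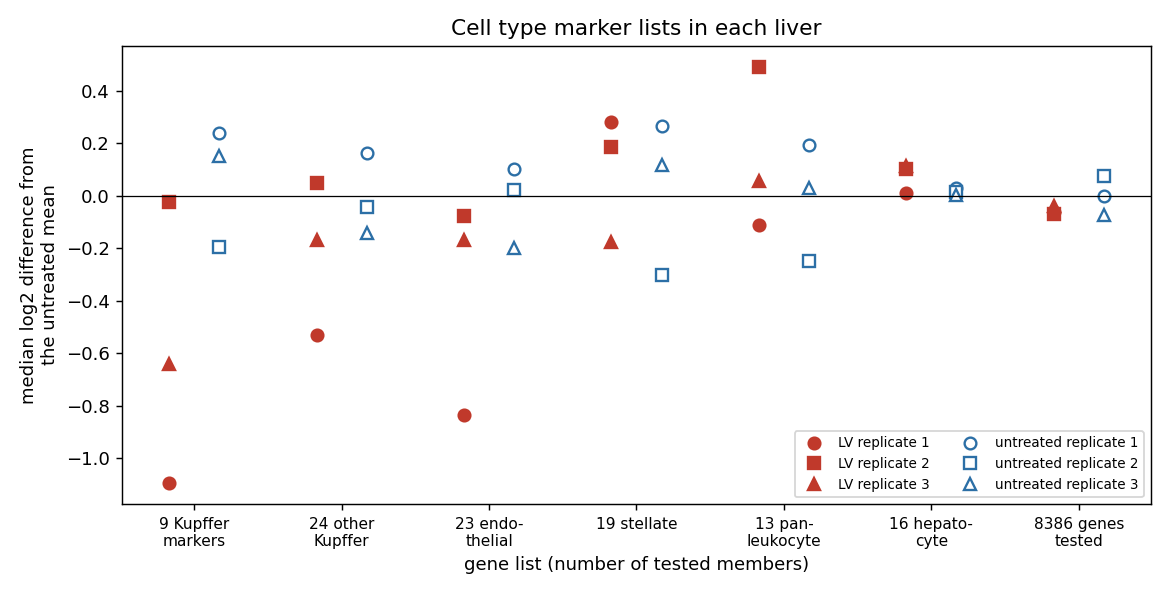
Median over each gene list of the log2 difference from the untreated mean, in each of 6 livers, LV in filled red and untreated in open blue symbols. The Kupffer cell markers, the other Kupffer cell genes and the endothelial genes are lowest in LV replicate 1, at -1.10, -0.53 and -0.83. The hepatocyte genes and all tested genes lie close to 0 in every liver.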

How the data were processed

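mRNA of mouse liver was sequenced from 6 TruSeq libraries of total RNA, per the labels' protocols. The authors deposited 1 table with a whole-number value per gene and library, treated here as a score. No header or label names its unit. The column sums were nearly alike, and among genes with a mean of 2 to 5 the variance over the mean was 0.249 in LV and 0.25 in untreated libraries, below that of counted reads. The submitters' processing notes name the build mm9, and the sources used here give no aligner, annotation or counting method. How the 8390 genes were selected is unknown, so an absent gene may be low or left out.

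Columns were matched to samples by description, and groups and replicate numbers follow the titles. Genes that reached 1 in 3 or more libraries were kept (8386). A model of log2(value + 1) on group was fitted in limma (version 3.58.1, R 4.3.3) with a variance trend, no block, two-sided p-values and Benjamini-Hochberg adjustment over all tested genes. The fit was also run on simulated data. Their noise was independent between genes, so that run does not cover shifts shared by many genes of a liver. Alternatives were a pseudocount of 0.1, no filter, a mean of at least 5, quantile, total and median-of-ratios scaling, no trend, a replicate block and left-out libraries.

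The marker genes and lists were chosen with earlier results of these data known. Lists were written from general knowledge and matched by symbol or by a RefSeq synonym (assembly GRCm38.p6, used for names and neighbours). Genes named in the text are the 9 markers, up to 4 genes with the smallest p per list, a fixed set of genes with a defining role, and the 5 genes closest in profile; not every one is printed. Further list members are named where their values describe a group, and these were chosen after their values were seen.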

Additional observations from a re-analysis of the deposited data

How the results depend on the processing

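Of the 9 markers, 0 were called higher under any alternative, and 1, Vsig4, was called lower with a mean of at least 5, with scaling to the same total and with median-of-ratios scaling. With single livers left out 0 were called lower. The fold changes of Vsig4, Clec4f, Cd5l, Csf1r and the 3 C1q chains were negative in each of the 16 fits, and the median of the 9 ranged from -0.85 to -0.39 with single livers left out. The ratio of Vsig4 to the other markers gave differences of -0.64 to -0.45 with single untreated livers left out, and that of Cd68 gave 0.44 to 0.77.

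Over all genes, 315 were higher and 73 lower. Leaving out single livers gave 120 to 317 higher and 10 to 116 lower, and omitting both LV replicate 3 and untreated replicate 2 gave 138 lower. The replicate block gave 145 higher and 11 lower genes, 3 higher other Kupffer cell genes in place of 5, 1 transcription factor in place of 2, 0 monocyte genes and 0 higher and 1 lower hepatocyte genes. The sample titles do not say whether replicate numbers pair the livers. Deviations from the group means correlated at 0.278, -0.47 and -0.337 for numbers 1, 2 and 3. They correlated at 0.612 between LV replicate 3 and untreated replicate 2. These values do not decide whether the livers were paired.

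With single livers left out, higher calls ranged from 2 to 4 among other Kupffer cell genes, 1 to 2 among transcription factors, 0 to 1 among complement, monocyte and dendritic cell genes and 0 to 3 among hepatocyte genes, and lower calls from 0 to 1 among Csf1r axis, transcription factor, endothelial and stellate genes. Without LV replicate 3 and untreated replicate 2 the higher calls were 2 other Kupffer cell genes, 3 transcription factors, 2 stellate genes, 1 complement, 1 Csf1r axis and 1 monocyte gene, and 0 dendritic and 0 hepatocyte genes. Scaling to the same total or by median of ratios gave 1 lower endothelial and 1 lower stellate gene, as did a mean of at least 5 for stellate genes. Hepatocyte genes had 3 higher calls with a mean of at least 5, with scaling to the same total and without trend, and 0 with quantile normalization. The unnamed unit and rounding limit genes at low values, such as Marco, Vsig4 and Cd163.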

Other observations

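The genes whose values over the 6 livers were closest to the mean profile of the 9 markers were sought among 6764 other genes with a mean of at least 5. They were Gpr182, a receptor of sinusoidal endothelium (Pearson r = 0.97 over 6 libraries), Tmem86a (0.97), Slc22a7, an organic anion transporter (0.97), Cfp, the complement factor properdin, made by myeloid cells (0.97), and Fam169b (0.97). These r values are a description of 6 libraries and carry no test. Cfp was at 10, 20 and 11 after the vector and at 21, 15 and 21 without it (log2 fold change -0.49 ± 0.29, limma adjusted p = 0.4), and Gpr182 had 16, 31 and 24 against 30, 24 and 30 (-0.27 ± 0.25, adjusted p = 0.589). Slc22a7 had 9, 40 and 15 against 41, 15 and 41, so that its LV values, too, were lowest in LV replicate 1 and highest in LV replicate 2.

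Class II antigen presentation genes, which Kupffer cells share with dendritic and B cells, had another order of livers. H2-Ab1 was at 18, 32 and 12 after the vector and at 42, 25 and 19 without it, and Cd74, the invariant chain, 51, 89 and 38 against 95, 64 and 63. LV replicate 3, not LV replicate 1, was the lowest LV liver for both, and neither was called (limma adjusted p = 0.587 and 0.589). C6, a complement component placed in the list of other Kupffer cell genes, was at 75 in LV replicate 3 and 110 in untreated replicate 2, the libraries that stand apart in male-biased genes. It was between 2 and 5 in the other livers.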
